A study of Mus musculus with 12 samples.

Results

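Protein tyrosine phosphatases take phosphate off tyrosine and so end the signals that tyrosine kinases start. The receptor type genes (Ptpr) code for membrane proteins, several of which bind matrix or adhesion proteins on the outside of the cell, the non-receptor genes (Ptpn) code for intracellular enzymes, and the dual-specificity genes (Dusp) include the MAP kinase phosphatases, which strip both phosphates from the activation loop of ERK, JNK or p38. In peripheral nerve, MAP kinases carry part of the injury signal from the cut axon to the ganglion, and the receptor phosphatase of Ptprs is known as a receptor through which chondroitin sulphate proteoglycans restrain axon growth. The genes described here are all gene names of the count table that begin with Dusp, Ptpn or Ptpr followed by their number or letter, without Ptprcap, which codes for a binding partner and not for a phosphatase. The rule uses names alone and no measured value, but the group was chosen with earlier results of these data known. It found 62 of 44345 gene names, of which 24 were Dusp, 17 Ptpn and 21 Ptpr genes.

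RNA of whole sciatic dorsal root ganglia (DRG) was sequenced from C57BL/6 mice aged 5 to 8 weeks. Mice lived in standard housing (SH) or in an enriched environment (EE) for 10 days and then underwent sham surgery or sciatic nerve axotomy (SNA), and ganglia L4 to L6 were taken 24 h later. This gave 4 groups of 3 samples, named SH Sham and SH SNA for standard housing and EE Sham and EE + SNA for enrichment. Every sample pools the ganglia of 2 mice, 6 mice per group. The study took EE Sham from an earlier dataset, and the labels give no sequencing date, so that in any comparison that uses EE Sham a difference between sequencing runs and the effect under test cannot be told apart. These are EE Sham against SH Sham, EE + SNA against EE Sham, the averaged injury effect and the interaction.

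Counted reads ran from 11343579 to 22871460 per sample, and the 62 phosphatase genes together took 0.263% to 0.296% of them. All 10 sensory neuron markers were detected, with sums of 13000 to 15700 CPM, which are counts relative to library size. The 6 injury response genes (Atf3, Sprr1a, Gap43, Sox11, Jun and Gal) summed to 494 to 569 CPM in the 6 sham samples and to 996 to 1190 CPM in the 6 injured samples. Whole ganglia hold neurons, satellite glia, Schwann cells, vessels and leukocytes, so fewer cells of a type and less RNA per cell cannot be told apart in any value given here.

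Of the 62 genes, 54 had enough counts to be tested, among them 20 Dusp, 16 Ptpn and 18 Ptpr genes. The 8 others were Dusp2, Dusp9, Dusp13, Dusp21, Ptpn20, Ptprh, Ptprq and Ptprv, and Dusp21 had no read in any sample. Per gene length, on the scale of the authors' FPKM, the highest members in SH Sham were Dusp26, a neuronal atypical phosphatase, at 63.5 ± 3.28 FPKM (SD, n = 3) and Ptprn, a catalytically inactive protein of dense core vesicles, at 62.9 ± 6.29 FPKM. These neighbours did not differ beyond their spread. Ptpra followed at 50.3 ± 1.29 FPKM, then Ptpn9 at 37.8 ± 3.66 FPKM and Dusp3 at 37.2 ± 0.675 FPKM, which again lay within each other's spread. Ptprf and Ptprs, both proteoglycan receptors, stood at 27.6 ± 1.63 and 26.9 ± 1.95 FPKM, and Ptpn11, which codes for SHP2, at 24.6 ± 1.36 FPKM. At the low end of the tested genes were Ptpn7 at 0.218 ± 0.0347 FPKM and Ptpn22 at 0.294 ± 0.0717 FPKM, both best known from lymphocytes. The values below are CPM scaled by the trimmed mean of M-values (TMM), which are not divided by gene length and serve to compare samples, not genes.

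SNA raised more phosphatase genes than it lowered. With the injury effect averaged over both housings (6 injured against 6 sham samples), 19 of the 54 tested genes were called at an adjusted p of 0.05, 16 higher and 3 lower, which is 35.2% of them beside 21.1% of all 16238 genes tested. The excess was on the higher side. Genes called higher made up 29.6% of the phosphatases against 10.8% of all genes, and genes called lower 5.56% against 10.3%. The median log2 fold change was 0.0875 over the 54 genes and 0.00700 over all genes. By name, 7 of 20 Dusp genes rose and 1 fell, 7 of 16 Ptpn genes rose and 1 fell, and 2 of 18 Ptpr genes rose and 1 fell. Of the 19 genes, 12 stayed called in every one of the 20 other settings tried (Dusp1, Dusp7, Dusp10, Dusp14, Dusp16, Ptpn1, Ptpn2, Ptpn3, Ptpn5, Ptpn23, Ptpro and Ptprs), and Dusp5, Dusp11, Dusp18, Ptpn7, Ptpn12, Ptpn14 and Ptprb lost the call in 2 to 14 of them.

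The 2 injury comparisons within a housing share no sample, so each can be read beside the other. In SH SNA against SH Sham 12 of 54 members were called, or 22.2% beside 11.2% of all genes. Of these 10 were higher, with 6.06% of all genes higher, and 2 lower, with 5.17% of all genes lower. In EE + SNA against EE Sham 3 were called, all higher (Dusp1, Dusp10 and Ptpro), or 5.56% beside 4.83% of all genes, a share near the background. Of all genes 2.51% were called higher and 2.33% lower there. At the unadjusted P-value of 0.05 that the study used, the counts were 21 (38.9%, all genes 25.2%) and 16 (29.6%, all genes 20.6%), and for the averaged effect 26 (48.1%, all genes 34.2%). The injured and sham samples did not overlap for 24 members in SH (44.4%, all genes 29.4%) and for 16 in EE (29.6%, all genes 25.8%), and all 6 injured lay apart from all 6 sham samples for 9 members (16.7%, all genes 11.1%). The fold change had the same sign in both housings for 45 of 54 members, or 83.3%, against 74.1% of all genes. Of the members called in SH, Dusp1, Ptpn1, Ptpn5, Ptpn23 and Ptprs kept the call in all 15 other settings, and the 7 others lost it in 2 to 11 of them. In EE Dusp1 kept it in all 15, and Dusp10 and Ptpro each lost it in 9. For 13 members, or 24.1%, all 3 injured samples lay beyond all 3 sham samples in the same direction in both housings, against 14.1% of all genes.

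**Figure D1:**
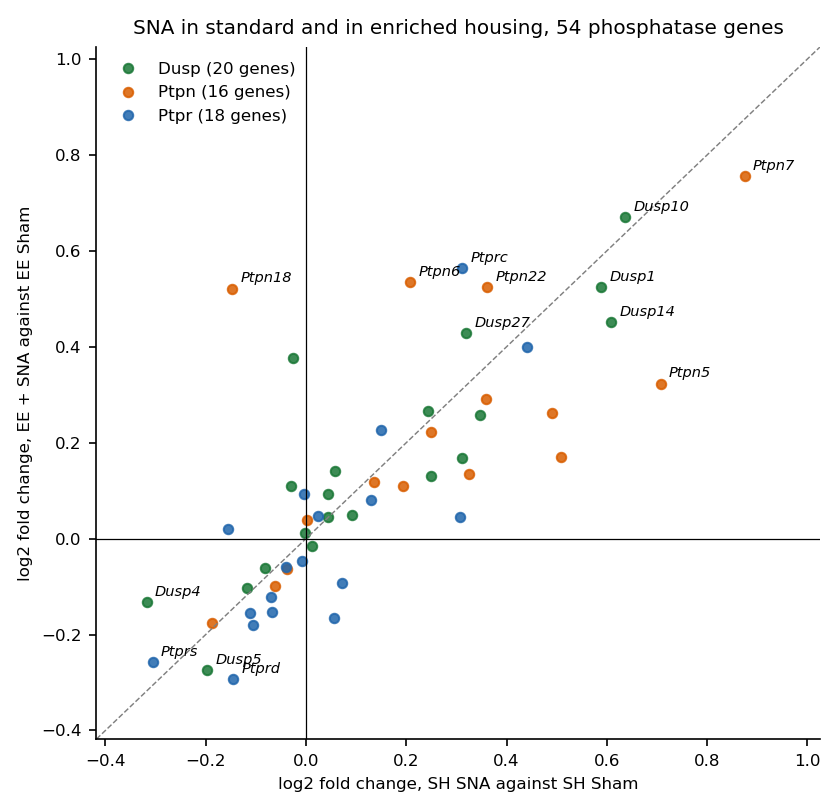
Log2 fold change of 54 phosphatase genes after SNA in EE (vertical axis, EE + SNA against EE Sham) against that in SH (horizontal axis, SH SNA against SH Sham), coloured by name group; the dashed line marks equal change. Of the 54 genes 45 have the same sign on both axes, with Dusp1, Dusp10, Dusp14 and Ptpn7 above 0.4 on both, Ptpn5 at 0.71 in SH and 0.32 in EE, and Ptprs and Dusp5 below 0 on both.

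Among the nuclear MAP kinase phosphatases, Dusp1 rose and Dusp5 fell. Dusp1 codes for MKP-1, an inducible phosphatase of p38, JNK and ERK. Dusp1 stood at 25.9, 28.4 and 23.5 CPM in SH Sham, 39, 38.7 and 39.2 CPM in SH SNA, 28.6, 29.7 and 30.1 CPM in EE Sham and 44.2, 38.1 and 46.2 CPM in EE + SNA. Every injured sample lay above every sham sample. The averaged log2 fold change was 0.56 ± 0.0593 (SE), a 1.47-fold rise (edgeR quasi-likelihood test, Benjamini-Hochberg adjusted p 4.68e-06), the smallest adjusted p of all 54 members. Its rise was called in each housing, with 0.59 ± 0.0836 (SE) in SH (adjusted p 0.00075) and 0.53 ± 0.0853 (SE) in EE (adjusted p 0.00434). Dusp1 is itself induced as an immediate early gene in many cells. Of 7 other tested immediate early genes 1 rose on average and in SH (Arc), none fell, and none was called in EE. Sums over the list were 84.6 to 98.6 CPM in SH Sham and 86.5 to 94.3 CPM in SH SNA. In EE Sham they were 73.7 to 87.9 CPM and in EE + SNA 90.2 to 95.9 CPM.

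Dusp5, a phosphatase specific for ERK, was at 18.8, 17.9 and 19.2 CPM in SH Sham, 15.4, 16.1 and 17.1 CPM in SH SNA, 20.1, 16.8 and 17.1 CPM in EE Sham and 16.1, 14.9 and 13.8 CPM in EE + SNA. Within each housing the injured samples lay below the sham samples, although 1 SH SNA sample reached the level of 2 EE Sham samples. The averaged log2 fold change of Dusp5 was -0.23 ± 0.068 (SE, adjusted p 0.0217). In the annotation 22.1% of the exon bases of Dusp5 are shared with a gene on the opposite strand, and the strand setting of the counting is not given in the sources used here, so reads of the 2 genes may not be separate. Dusp4, whose product also acts on ERK and JNK, ran from 2.62 to 4.75 CPM with overlapping groups, and its averaged log2 fold change of -0.22 ± 0.141 (SE) did not pass (adjusted p 0.286). Dusp2 stayed under 1 CPM in every sample and was not tested.

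The promoters of these genes are shown because Dusp1 is a known target of CREB, AP-1 and STAT factors act after axotomy, and the called genes differ in whether such letters lie near their start. RefSeq promoters (GRCm38.p6, 250 bases before to 50 after the start) matched 50 of the 62 members, with 67 promoters in all. Below, capitals mark matches on either strand to the CRE core TGACG or to the STAT letters (TTC, any 3 bases, GAA), and where a core on one strand overlaps a core on the other the capitals run together. Dusp1 (chr17:26508423-26508722, minus strand) and Dusp5 (chr19:53528895-53529194, plus strand) are the opposed pair of nuclear phosphatases, Dusp10 (chr1:184034131-184034430, plus strand) and Dusp14 (chr11:84068308-84068607, minus strand) had rises of similar size to that of Dusp1, and Ptprs (the upstream of its 2 promoters, chr17:56476431-56476730, minus strand) is the receptor gene that fell.
Dusp1: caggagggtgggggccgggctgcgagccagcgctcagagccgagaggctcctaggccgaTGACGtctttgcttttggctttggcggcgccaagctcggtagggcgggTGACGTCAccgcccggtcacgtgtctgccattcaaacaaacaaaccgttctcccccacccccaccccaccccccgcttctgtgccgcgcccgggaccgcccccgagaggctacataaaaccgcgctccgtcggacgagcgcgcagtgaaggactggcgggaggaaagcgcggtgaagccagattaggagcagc
Dusp5: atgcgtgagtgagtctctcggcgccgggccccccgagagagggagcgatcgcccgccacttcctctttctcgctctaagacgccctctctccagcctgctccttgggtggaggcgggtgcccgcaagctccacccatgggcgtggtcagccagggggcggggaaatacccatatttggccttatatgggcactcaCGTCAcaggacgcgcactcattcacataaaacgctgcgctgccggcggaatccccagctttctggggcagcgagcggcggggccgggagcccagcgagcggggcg
Dusp10: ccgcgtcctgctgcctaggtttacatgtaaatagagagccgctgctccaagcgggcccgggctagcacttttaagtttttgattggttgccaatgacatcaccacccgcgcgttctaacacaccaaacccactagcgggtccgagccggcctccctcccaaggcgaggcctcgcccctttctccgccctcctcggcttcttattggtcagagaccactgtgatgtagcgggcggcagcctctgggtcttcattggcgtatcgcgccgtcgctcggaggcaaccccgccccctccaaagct
Dusp14: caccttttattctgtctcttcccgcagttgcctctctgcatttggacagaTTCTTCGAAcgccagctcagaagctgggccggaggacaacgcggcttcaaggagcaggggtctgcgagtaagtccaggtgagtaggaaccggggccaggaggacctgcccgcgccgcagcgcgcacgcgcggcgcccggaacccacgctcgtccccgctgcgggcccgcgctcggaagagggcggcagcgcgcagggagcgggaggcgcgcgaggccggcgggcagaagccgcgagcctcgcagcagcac
Ptprs: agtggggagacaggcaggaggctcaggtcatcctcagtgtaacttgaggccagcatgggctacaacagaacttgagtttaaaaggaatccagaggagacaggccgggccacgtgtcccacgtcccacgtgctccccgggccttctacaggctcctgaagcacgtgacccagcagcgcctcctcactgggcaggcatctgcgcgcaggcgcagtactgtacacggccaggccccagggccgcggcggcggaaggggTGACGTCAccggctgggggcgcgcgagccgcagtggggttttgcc

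Dusp1 holds 3 matches to the CRE core, which begin 191, 143 and 140 bases before the start, the last 2 of them forming the full palindrome. Ptprs, which fell, holds the same palindrome in its upstream promoter, 5 bases after the start. Its other promoter holds no match to any of the searched letters, and which start is used in ganglia was not tested. Dusp5, which fell, holds a core 55 bases before the start. Dusp10 holds no match to any of the searched letters, and Dusp14 holds the STAT letters 200 bases before the start. The CRE core was in 9 of the 19 promoters of called members, or 47.4%. These 19 promoters belong to 16 of the 19 called genes. All 3 genes called lower (Dusp5, Ptpn3 and Ptprs) are among the 9 genes with the core. It was in 38.3% of the 60 promoters of tested members and in 28.9% of those of all tested genes. Of the promoters of all genes called after injury 26.3% held it. The AP-1 letters TGANTCA were in none of the 19, against 5.26% for all tested genes. The STAT letters were in 2 of the 19, or 10.5%, against 6.92%. These are matches of letters in a short window and say nothing of binding.

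The phosphatases that act on JNK and p38 were represented by Dusp8, Dusp10 and Dusp16, and 2 of the 3 rose. Dusp10, which codes for MKP-5, was at 5.16, 3.23 and 3.94 CPM in SH Sham, 6.58, 6.42 and 6.29 CPM in SH SNA, 3.61, 3.79 and 4.87 CPM in EE Sham and 6.23, 6.14 and 7.41 CPM in EE + SNA. No injured sample fell into the sham range. The averaged log2 fold change of Dusp10 was 0.66 ± 0.122 (SE, adjusted p 0.000974), with 0.64 ± 0.171 (SE) in SH and 0.67 ± 0.17 (SE) in EE. Dusp16, which codes for the JNK phosphatase MKP-7, was at 19.5, 20.3 and 19.6 CPM in SH Sham, 24.4, 20.5 and 25.1 CPM in SH SNA, 19.5, 20.8 and 19.7 CPM in EE Sham and 21.9, 24.9 and 25.6 CPM in EE + SNA. The groups were apart within each housing, and the averaged log2 fold change was 0.26 ± 0.0651 (SE, adjusted p 0.00961). Dusp8 ran from 37.9 to 46.1 CPM, and its groups overlapped in both housings.

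The cytoplasmic ERK phosphatases are Dusp6, Dusp7 and Dusp9. Dusp7 was at 17, 18 and 16.4 CPM in SH Sham, 24.2, 20.7 and 20.3 CPM in SH SNA, 19.2, 16.1 and 16.7 CPM in EE Sham and 23.3, 20.5 and 18.6 CPM in EE + SNA. SH SNA lay wholly above SH Sham, while EE + SNA overlapped EE Sham in 1 sample, and the averaged log2 fold change was 0.30 ± 0.0746 (SE, adjusted p 0.00787). Dusp6, the usual feedback phosphatase of ERK, ran from 23.1 to 27.5 CPM in SH Sham, 24.7 to 28.1 CPM in SH SNA, 23.5 to 26.3 CPM in EE Sham and 25.2 to 31.9 CPM in EE + SNA. Its groups overlapped, and the averaged log2 fold change of 0.10 ± 0.0716 (SE) did not pass (adjusted p 0.342). Dusp9 stayed under 1 CPM and was not tested.

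Of the 12 tested atypical Dusp genes, which lack the MAP kinase binding domain, 3 rose and none fell. Dusp14, which codes for a small phosphatase also called MKP-6, was at 5.98, 4.73 and 5.62 CPM in SH Sham, 9.25, 8.45 and 7.24 CPM in SH SNA, 5.78, 6 and 5.52 CPM in EE Sham and 8.01, 7.57 and 8.30 CPM in EE + SNA. All injured samples exceeded all sham samples, with an averaged log2 fold change of 0.53 ± 0.0927 (SE, adjusted p 0.000557). Dusp11, which codes for an RNA 5′ phosphatase and not a protein tyrosine phosphatase in the strict sense, was at 44.2, 40.6 and 38 CPM in SH Sham, 49.1, 47.6 and 49.3 CPM in SH SNA, 46.1, 39.9 and 42.6 CPM in EE Sham and 50.1, 48.6 and 42.5 CPM in EE + SNA. Its rise was called in SH (0.25 ± 0.0721 SE, adjusted p 0.0444), where the groups were apart, and the EE groups overlapped. Dusp18 was at 10.5, 10.5 and 10.9 CPM in SH Sham, 14, 13 and 12.5 CPM in SH SNA, 9.20, 10.9 and 12.7 CPM in EE Sham and 12.9, 11.8 and 12.6 CPM in EE + SNA, again apart in SH and overlapping in EE, with an averaged log2 fold change of 0.24 ± 0.0789 (SE, adjusted p 0.0374). Dusp26 and Dusp3, the most abundant of the Dusp genes, changed little in size, with averaged log2 fold changes of 0.00 and -0.11 and adjusted p of 0.997 and 0.0694.

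**Figure D2:**
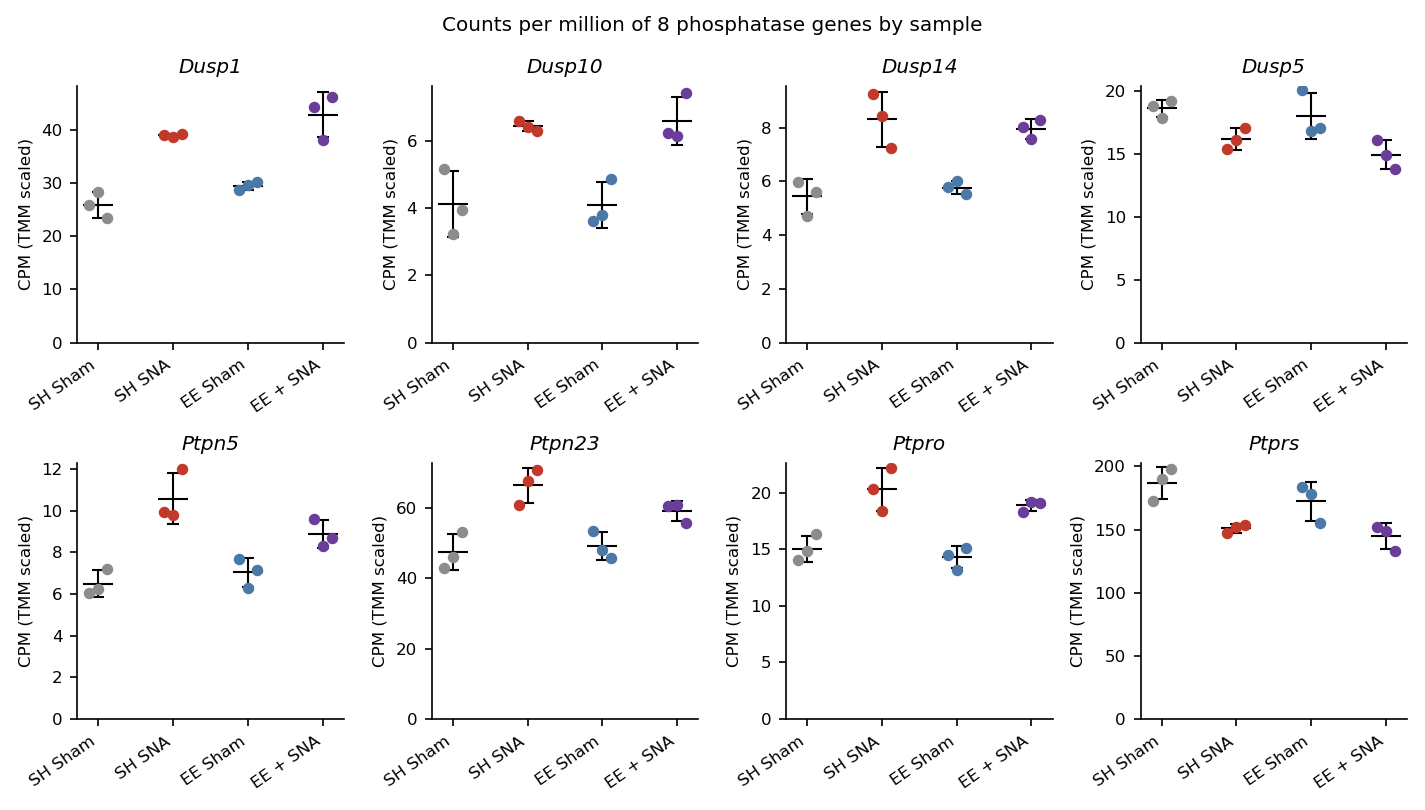
TMM-scaled CPM of 8 phosphatase genes in every sample of the 4 groups, with 1 panel per gene, axes from 0, points for samples, and bars for the mean ± SD of 3 samples. Dusp1, Dusp10, Dusp14, Ptpn5, Ptpn23 and Ptpro are higher in all 6 injured samples than in all 6 sham samples, and Ptprs and, within each housing, Dusp5 are lower.

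Ptpn5, Ptpn7 and the receptor gene Ptprr code for the phosphatases that dock on MAP kinases through a kinase interaction motif. Ptpn5 (chr7:47077795-47133684, minus strand, GENCODE on GRCm38) codes for STEP, a neuronal phosphatase of ERK, p38 and glutamate receptor subunits. Ptpn5 was at 6.04, 6.24 and 7.22 CPM in SH Sham, 9.94, 9.80 and 12 CPM in SH SNA, 7.67, 6.30 and 7.15 CPM in EE Sham and 9.61, 8.31 and 8.70 CPM in EE + SNA. Every injured sample lay above every sham sample, and SH SNA lay wholly above EE + SNA. The log2 fold change was 0.71 ± 0.129 (SE) in SH (adjusted p 0.0036) and 0.32 ± 0.134 (SE) in EE, where it did not pass (adjusted p 0.195). The difference between these 2 effects, tested as the interaction of housing and surgery, was -0.38 ± 0.181 (SE) with a 95% interval of -0.758 to 0.00923 and did not pass either (p 0.0551 unadjusted, adjusted p 1, edgeR quasi-likelihood test).

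Ptprr was at 37.9, 36.2 and 38 CPM in SH Sham, 38.2, 40.7 and 43.5 CPM in SH SNA, 41, 37.6 and 41.2 CPM in EE Sham and 42.4, 42.6 and 42.1 CPM in EE + SNA. Its groups were apart in both housings, but by little, and the averaged log2 fold change of 0.11 ± 0.0471 (SE) did not pass (adjusted p 0.122). Of its exon bases 11% are shared with a gene on the opposite strand. Ptpn7, which codes for the haematopoietic phosphatase HePTP, is described with the leukocyte genes below.

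Ptpn23, Ptpn1 and Ptpn2 also rose. Ptpn23 (chr9:110385082-110408213, minus strand), which codes for HD-PTP, a protein of endosomal sorting, was at 42.9, 46.1 and 53 CPM in SH Sham, 60.8, 67.6 and 70.6 CPM in SH SNA, 53.4, 48 and 45.8 CPM in EE Sham and 60.4, 60.8 and 55.7 CPM in EE + SNA. No injured sample reached down into the sham range. Its rise was called in SH (0.49 ± 0.0835 SE, adjusted p 0.00235) and for the average (0.38 ± 0.0593 SE, adjusted p 0.000222), and in EE the log2 fold change was 0.26 ± 0.0751 (SE, adjusted p 0.07).

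Ptpn1 and Ptpn2 code for the sister enzymes PTP1B and TC-PTP, which act on insulin and cytokine receptor signalling. Ptpn1 was at 48.2, 53.6 and 50.9 CPM in SH Sham, 67.6, 62.6 and 60.6 CPM in SH SNA, 51.2, 58.7 and 50.5 CPM in EE Sham and 56.4, 61.4 and 59.1 CPM in EE + SNA. The SH groups were apart and the EE groups overlapped, and the averaged log2 fold change was 0.23 ± 0.0503 (SE, adjusted p 0.0033). Ptpn2 was at 12.1, 12.2 and 10.1 CPM in SH Sham, 14.9, 14.2 and 14.9 CPM in SH SNA, 11.5, 11.8 and 13.5 CPM in EE Sham and 14.1, 14.4 and 16.8 CPM in EE + SNA. All 6 injured samples exceeded all 6 sham samples, and the averaged log2 fold change was 0.33 ± 0.0764 (SE, adjusted p 0.00569).

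Among the phosphatases with a FERM domain, Ptpn3 fell, Ptpn14 rose and Ptpn4 was called in SH and not on average. Ptpn3 was at 113, 110 and 111 CPM in SH Sham, 92.5, 101 and 98.9 CPM in SH SNA, 117, 110 and 113 CPM in EE Sham and 109, 104 and 89.5 CPM in EE + SNA. Every injured value lay below every sham value, by little, and the averaged log2 fold change was -0.18 ± 0.0483 (SE, adjusted p 0.0139). Ptpn4, the close relative of Ptpn3, was at 10.4, 8.25 and 8.16 CPM in SH Sham, 12.8, 13.4 and 12 CPM in SH SNA, 13, 8.35 and 9.18 CPM in EE Sham and 13.3, 12.6 and 8.22 CPM in EE + SNA. In SH it rose by 0.51 ± 0.121 (SE, adjusted p 0.017) with groups apart, and in EE the groups overlapped with 0.17 ± 0.196 (SE, adjusted p 0.676); the interaction was -0.33 ± 0.251 (SE, adjusted p 1). Ptpn14, whose product binds YAP, was at 16.9, 22.9 and 21.1 CPM in SH Sham, 24.5, 22.4 and 25.1 CPM in SH SNA, 17.3, 21.7 and 19 CPM in EE Sham and 21.4, 22.9 and 23.8 CPM in EE + SNA. The groups overlapped in both housings, and the averaged log2 fold change was 0.24 ± 0.0788 (SE, adjusted p 0.0407).

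Ptpn12, which codes for PTP-PEST, a phosphatase of focal adhesion proteins, was at 54.5, 52.9 and 49.3 CPM in SH Sham, 61.6, 60.7 and 56.7 CPM in SH SNA, 62.2, 51.8 and 58.2 CPM in EE Sham and 63.8, 58.6 and 64.5 CPM in EE + SNA. SH SNA lay above SH Sham, the EE groups overlapped, and the averaged log2 fold change was 0.15 ± 0.0512 (SE, adjusted p 0.0428). Ptpn11, which codes for SHP2, the phosphatase that growth factor receptors use to activate Ras, ran from 162 to 194 CPM over all samples. Its averaged log2 fold change of -0.08 ± 0.0453 (SE) did not pass (adjusted p 0.241).

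**Figure D3:**
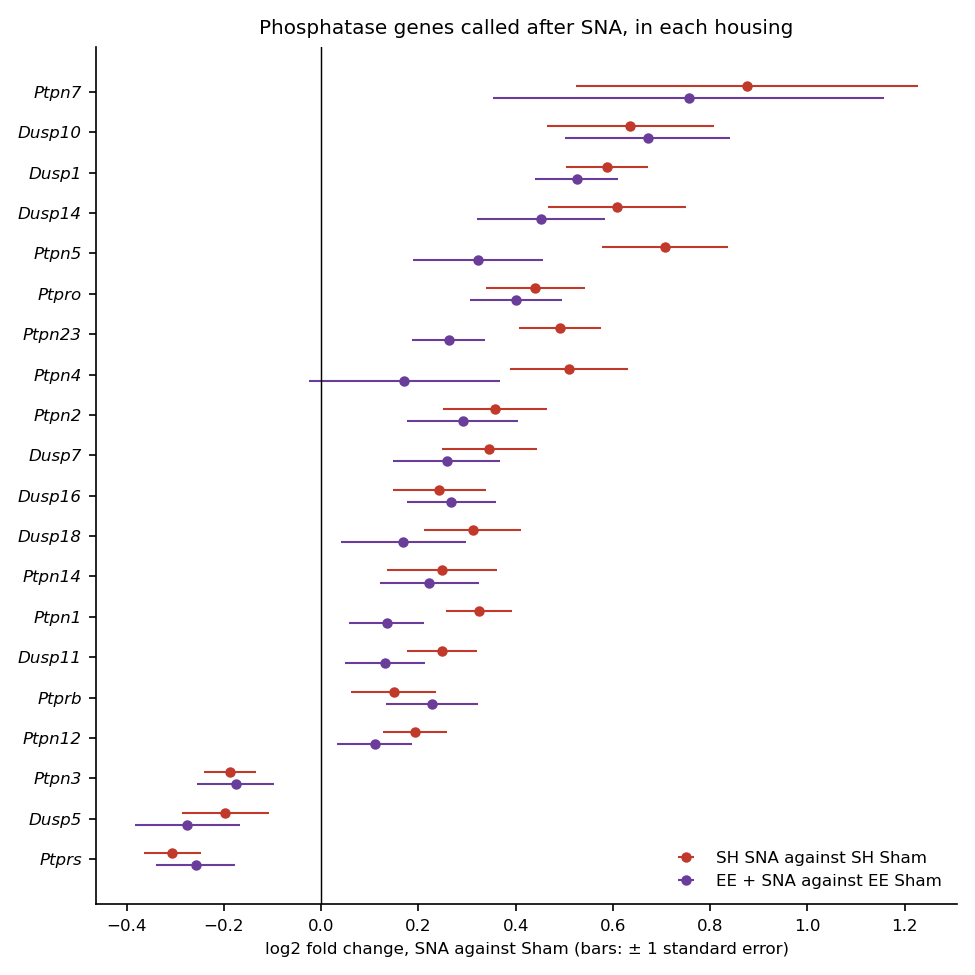
Log2 fold change after SNA for the 20 phosphatase genes called in either housing or on average, with points and bars for the estimate ± 1 SE, in SH (SH SNA against SH Sham) and in EE (EE + SNA against EE Sham). Ptpn5, Ptpn23, Ptpn4 and Ptpn1 are among the genes with the higher point in SH, as are Dusp1 and Ptpro, while Dusp10 has it in EE. The interaction passed for no gene shown.

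Of the receptor genes, the 3 receptors of type R2A, which bind proteoglycans and synaptic adhesion proteins, all had negative fold changes, and 1 of them, Ptprs, was called. Ptprs, which codes for PTPσ, was at 173, 190 and 198 CPM in SH Sham, 147, 152 and 154 CPM in SH SNA, 184, 178 and 155 CPM in EE Sham and 152, 149 and 133 CPM in EE + SNA. The highest injured value and the lowest sham value were next to each other, and no value crossed. Ptprs fell in SH to 0.809 times its sham level (-0.31 ± 0.0592 SE, adjusted p 0.00533), and the averaged log2 fold change was -0.28 ± 0.0523 (SE, adjusted p 0.00106). In EE the change was -0.26 ± 0.081 (SE, adjusted p 0.0942). Ptprd ran from 23.7 to 26.2 CPM in SH Sham, 21.7 to 23.5 CPM in SH SNA, 22.9 to 29.6 CPM in EE Sham and 17.0 to 24.1 CPM in EE + SNA, with an averaged log2 fold change of -0.22 ± 0.0828 (SE, adjusted p 0.0723). Ptprf, which codes for LAR, ran from 200 to 268 CPM over all samples, with -0.14 ± 0.0559 (SE, adjusted p 0.0835), and its groups overlapped in both housings.

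Some neuronal markers were called lower after SNA and some glial markers higher. For the averaged injury effect, 10.8% of all genes were called higher and 10.3% lower. Of 10 sensory neuron markers 7 fell on average and none rose. Within a housing, 3 of them fell in SH and 1 in EE. Their sums were 15000 to 15700 CPM in SH Sham and 13200 to 14100 CPM in SH SNA. In EE Sham they were 14000 to 14900 CPM and in EE + SNA 13000 to 13800 CPM. Of 6 Schwann cell markers 4 rose on average, and none was called within either housing. Their sums were 6720 to 8200, 7170 to 10600, 5920 to 8380 and 8690 to 11500 CPM in the same order. Of 6 satellite glia markers 3 rose on average (2 in SH, 1 in EE). Of 6 fibroblast markers 2 rose on average (none in SH, 1 in EE), and none of either list fell. The part of these shifts in the changes of Ptprs, Ptpn3 and the other members was not tested.

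Receptor genes of type R3 included both that rose. Ptpro (chr6:137252319-137463233, plus strand), which codes for a receptor known from podocytes and neurons, was at 14, 14.8 and 16.3 CPM in SH Sham, 20.3, 18.4 and 22.2 CPM in SH SNA, 14.5, 13.2 and 15.1 CPM in EE Sham and 18.3, 19.2 and 19.1 CPM in EE + SNA. All injured samples lay above all sham samples, and the rise was called in SH (0.44 ± 0.102 SE, adjusted p 0.0152) and in EE (0.40 ± 0.0948 SE, adjusted p 0.0333). Ptprb, which codes for the vascular phosphatase VE-PTP, was at 21.4, 24.6 and 25.3 CPM in SH Sham, 26.1, 26 and 26.6 CPM in SH SNA, 21.4, 26.2 and 25.7 CPM in EE Sham and 29.6, 28.6 and 28.1 CPM in EE + SNA. The groups were apart in each housing, and the averaged log2 fold change was 0.19 ± 0.0633 (SE, adjusted p 0.0418). Beside it, 1 of 7 endothelial markers rose on average (Cdh5), none fell, and none was called within a housing. Their sums were 108 to 134 CPM in SH Sham and 117 to 135 CPM in SH SNA. In EE Sham they were 103 to 125 CPM and in EE + SNA 129 to 149 CPM. The part of vessel content in Ptprb was not tested. Ptprj, another R3 gene, was at 17.8, 22.3 and 20.1 CPM in SH Sham, 26, 22.5 and 25.8 CPM in SH SNA, 22.2, 22 and 23.6 CPM in EE Sham and 24.7, 22.3 and 23.5 CPM in EE + SNA, with 0.18 ± 0.0668 (SE) on average (adjusted p 0.0677).

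The other receptor genes gave no call. Ptprz1, a glial receptor of pleiotrophin, ran from 50.5 to 58.8 CPM, and its averaged log2 fold change was -0.02 ± 0.0478 (SE, adjusted p 0.76). Ptprn and Ptprn2, which code for dense core vesicle proteins, had 0.04 ± 0.0504 (SE) and -0.11 ± 0.0523 (SE, adjusted p 0.639 and 0.158). Over the 12 samples, the members whose CPM followed Ptprn most closely were Dusp28 (Pearson's r 0.598), Ptpn23 (0.575) and Dusp8 (0.525), which describes these samples only, since the groups and libraries are shared.

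Leukocyte phosphatases were low and uneven. Ptprc, which codes for CD45 and marks all leukocytes, was at 7.10, 6.53 and 3.68 CPM in SH Sham, 8.03, 5.07 and 8.36 CPM in SH SNA, 5.78, 6.91 and 4.22 CPM in EE Sham and 5.96, 6.57 and 13 CPM in EE + SNA. The groups overlapped, the third EE + SNA sample was the highest, and the averaged log2 fold change of 0.44 ± 0.21 (SE) did not pass (adjusted p 0.148). Ptpn6, which codes for SHP1, was at 3.34, 3.87 and 3.34 CPM in SH Sham, 3.75, 3.30 and 5.09 CPM in SH SNA, 3.25, 4.55 and 3.49 CPM in EE Sham and 5.34, 4.79 and 6.61 CPM in EE + SNA. The EE groups were apart and the SH groups overlapped, with an averaged 0.38 ± 0.138 (SE, adjusted p 0.0632). Ptpn7 was at 0.821, 0.789 and 0.602 CPM in SH Sham, 0.994, 1.10 and 1.99 CPM in SH SNA, 1.17, 1.21 and 0.569 CPM in EE Sham and 1.42, 1.13 and 2.66 CPM in EE + SNA. Its averaged log2 fold change of 0.82 ± 0.282 (SE) passed narrowly (adjusted p 0.0492), and the call was lost in 13 of 19 other settings.

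The third EE + SNA sample, which was highest for Ptprc, Ptpn6 and Ptpn7, also had the highest sum of neutrophil markers, 726 CPM against 68.9 to 307 CPM in the 11 other samples. Of 7 tested neutrophil markers 1 rose on average (Retnlg), and none was called within a housing. Macrophage markers summed to 42.6 to 49.5 CPM in SH Sham and 51.7 to 73.6 CPM in SH SNA. In EE Sham they summed to 45.1 to 50.3 CPM and in EE + SNA to 53.3 to 73.5 CPM. On average 4 of 7 rose (Csf1r, Cd14, Mrc1 and Cd163), but within a housing only 1 was called, Mrc1 in SH. Over the 12 samples Ptpn7 went with Ptpn6 (Pearson's r 0.827), Ptprc (0.812) and Dusp1 (0.755), values that share libraries and groups. Lymphocyte markers summed to 3.08 to 12.7 CPM over all samples. On average 1 of 4 tested rose (Ms4a1), and none was called within a housing. Red blood cell genes summed to 114 to 184 CPM in SH Sham, 190 to 516 CPM in SH SNA, 111 to 307 CPM in EE Sham and 175 to 595 CPM in EE + SNA, and of the 3 tested 0 were called on average, 2 rose in SH SNA against SH Sham (Hba-a1 and Alas2), 0 were called in EE + SNA against EE Sham and 3 rose in EE + SNA against SH Sham. The part of leukocyte or blood content in Ptprc, Ptpn6 and Ptpn7 was not tested. Ptpn22, another lymphocyte gene, ran from 0.566 to 1.93 CPM in injured and 0.487 to 1.14 CPM in sham samples and did not pass (averaged log2 fold change 0.45 ± 0.33 (SE), adjusted p 0.37).

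**Figure D4:**
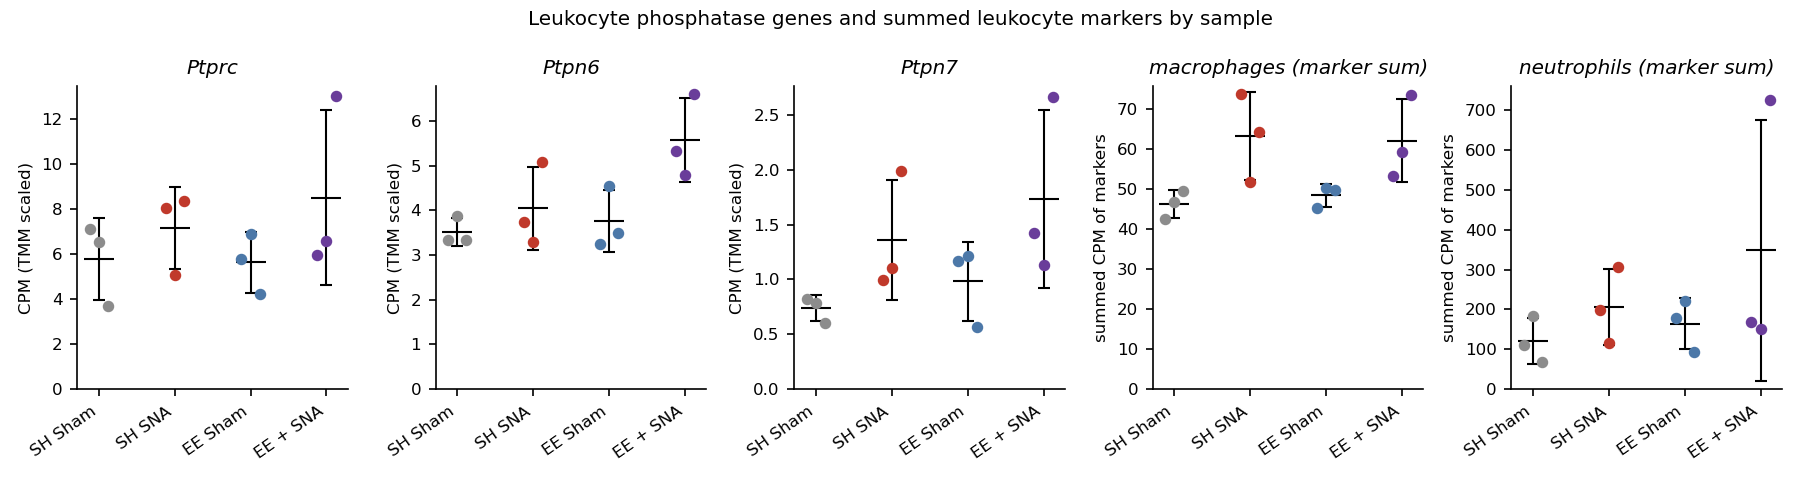
CPM of Ptprc, Ptpn6 and Ptpn7 and summed CPM of macrophage and neutrophil markers in each sample of the 4 groups, with points for samples, bars for the mean ± SD of 3 samples, and axes from 0. The third EE + SNA sample is the highest in Ptprc, Ptpn6, Ptpn7 and the neutrophil sum (726 CPM), and the macrophage sums of all 6 injured samples lie above those of all 6 sham samples.

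Dusp13 and Dusp27 are known from skeletal muscle. Their highest values, 1.10 and 2.79 CPM, both fell in the second SH SNA sample, whose muscle markers summed to 989 CPM against 3.40 to 169 CPM in the 11 other samples. The next highest values of Dusp27, 2.44 CPM in the second SH Sham sample and 2.37 CPM in the first SH SNA sample, came with muscle sums of 12.1 and 37 CPM. Dusp27 did not pass after SNA (0.38 ± 0.213 SE, adjusted p 0.23), Dusp13 was not tested, and the part of muscle RNA was not tested.

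Against SH Sham, EE + SNA called 13 members, or 24.1% beside 12.5% of all genes. Of these 11 were higher and 2 lower, beside 6.87% and 5.63% of all genes. This comparison takes its samples from the injury comparisons above, so its calls are no further evidence. Beyond members already called in EE + SNA against EE Sham or in SH, it called Dusp16, Ptpn2, Ptpn6, Ptpn12 and Ptprb higher and Dusp5 lower. Of the 15 other settings, the call was lost in 11 for Dusp16 and Ptprb, 10 for Ptpn2, 8 for Dusp5, 7 for Ptpn12 and 6 for Ptpn6. The count of 13 fell to 3 with the replicate block and to 3 to 8 with 1 sample left out. Ptpn6 was 1.57-fold higher (0.65 ± 0.174 SE, adjusted p 0.0294). Without the third EE + SNA sample, whose neutrophil markers summed to 726 CPM, its log2 fold change was 0.51 and did not pass (adjusted p 0.0899), nor did it pass without EE + SNA replicate 1 (adjusted p 0.0717), SH Sham replicate 1 (0.0978) or SH Sham replicate 3 (0.0967). Dusp1 had the smallest adjusted p here too (0.71 ± 0.0921 SE, adjusted p 0.000395).

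Housing alone moved no phosphatase gene past the threshold. In EE Sham against SH Sham edgeR called 0 of 54 members at the adjusted and 0 at the unadjusted P-value, beside 0.00616% and 2.97% of all genes, DESeq2 called 0 at both, and limma called 0 at the adjusted and 1 at the unadjusted P-value. Replicate numbers were taken to pair these samples only because samples of equal number correlated, in a range that overlapped that of unequal numbers. With replicate numbers as a block edgeR called 0 members at the adjusted and 1 at the unadjusted P-value. In all it called 29 genes at the adjusted one against 1 without the block. The values that follow are without the block. The groups did not overlap for 5 members (Dusp1, Dusp23, Ptpn21, Ptpre and Ptprk), or 9.26% beside 7.61% of all genes. Dusp1 had the smallest p, with 28.6 to 30.1 CPM in EE Sham and 23.5 to 28.4 CPM in SH Sham, a log2 fold change of 0.18 ± 0.086 (SE) and a 95% interval of -0.000942 to 0.367 (p 0.051 unadjusted, edgeR quasi-likelihood test). The next were Ptpre (-0.15, interval -0.329 to 0.0219), Ptprj (0.17, -0.0339 to 0.382), Ptpn12 (0.13, -0.0356 to 0.301), Ptprs (-0.12, -0.290 to 0.0491) and Dusp23 (-0.25, -0.643 to 0.136), whose intervals all held 0.

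Within injured ganglia, EE + SNA against SH SNA called 0 members at the adjusted P-value in edgeR, DESeq2 and limma. At the unadjusted P-value edgeR called 2, or 3.70% beside 4.10% of all genes, DESeq2 0 and limma 1. Ptpn6 was higher (0.45 ± 0.201 SE, p 0.0464 unadjusted, edgeR quasi-likelihood test), with the SH SNA and EE + SNA values overlapping. Ptpn23 was lower (-0.17 ± 0.071 SE, p 0.0373 unadjusted, edgeR quasi-likelihood test), also with overlap. Ptpn5 was next (-0.26 ± 0.125 SE, interval -0.536 to 0.0123), with all EE + SNA samples at 8.31 to 9.61 CPM below all SH SNA samples at 9.80 to 12 CPM. Ptprb (0.13, interval -0.0284 to 0.294), Ptpn1 (-0.11, -0.251 to 0.0363) and Dusp1 (0.13, -0.0480 to 0.311) followed. The groups did not overlap for 3 members (Dusp23, Ptpn5 and Ptprb), or 5.56% beside 10.4% of all genes.

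The interaction of housing and surgery called 0 members, adjusted or unadjusted, in edgeR, beside 2.61% of all genes at the unadjusted P-value, DESeq2 called 0 at both, and limma called 0 adjusted and 1 unadjusted. After Ptpn5 the smallest p belonged to Ptprj (-0.25, interval -0.536 to 0.0294), Ptpn23 (-0.22, -0.471 to 0.0312), Ptpn1 (-0.18, -0.394 to 0.0326), Dusp23 (0.41, -0.0510 to 0.877) and Ptpre (0.18, -0.0817 to 0.451). The interval for Ptpn5 reaches past the size of its averaged injury effect, 0.52, so its 3 samples a group could not separate a large difference between housings from none.

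**Figure D5:**
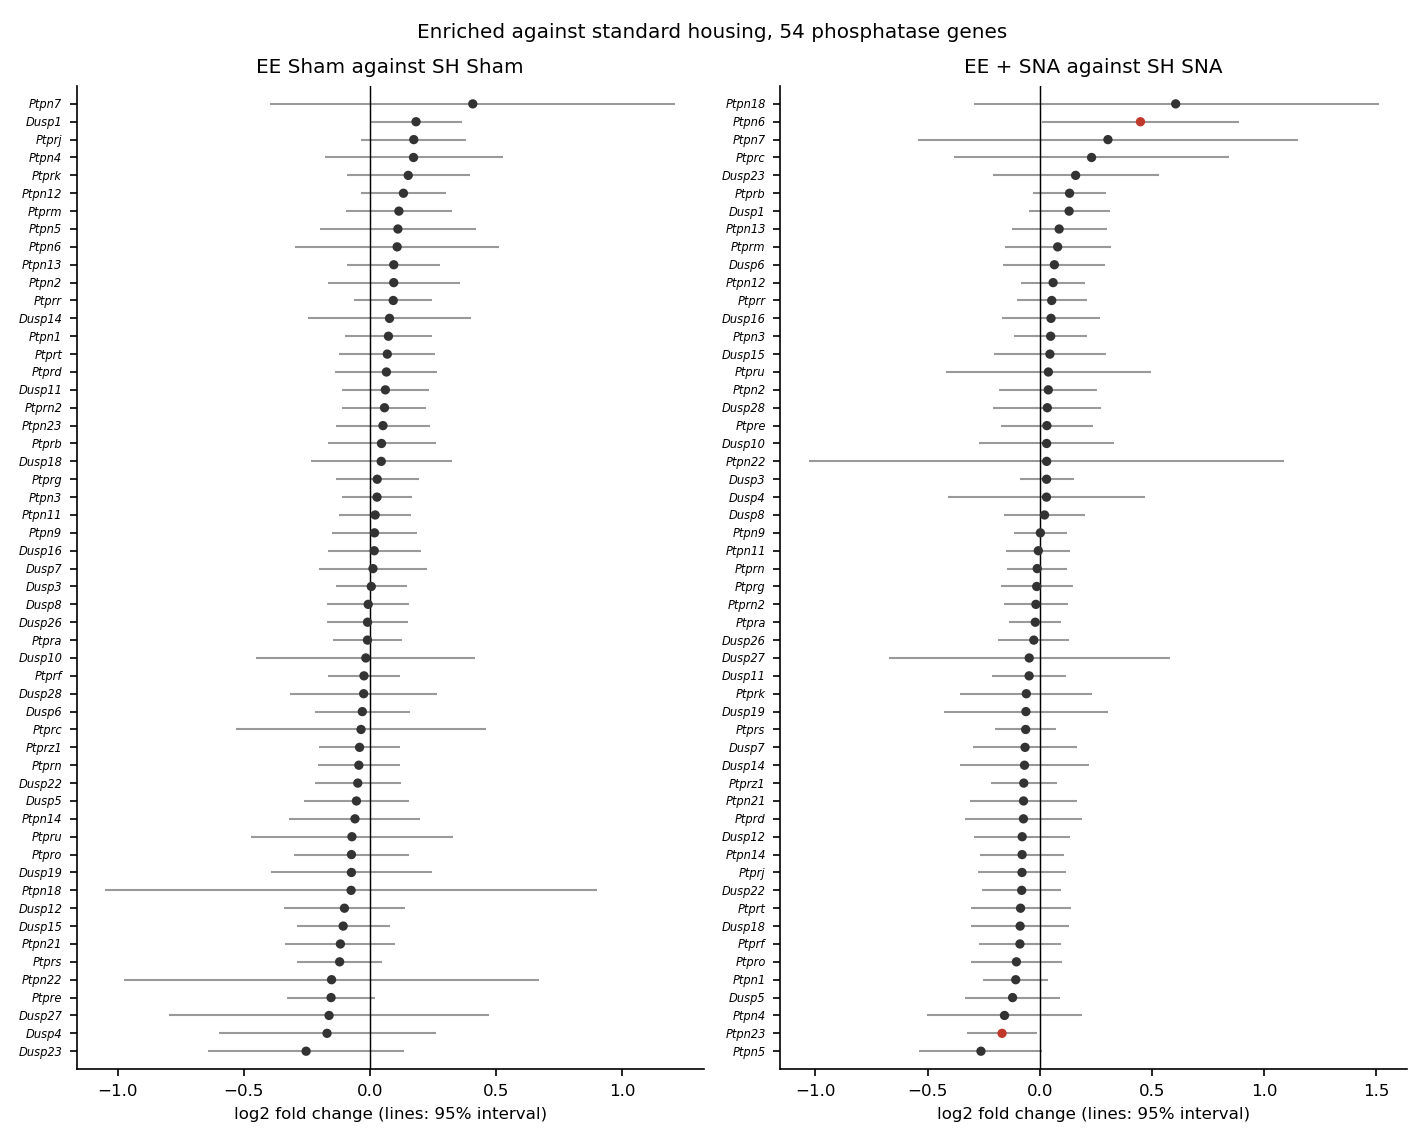
Log2 fold change of 54 phosphatase genes between housings in sham ganglia (left, EE Sham against SH Sham) and in injured ganglia (right, EE + SNA against SH SNA), sorted by size, with lines for 95% intervals and red for an unadjusted p under 0.05. No gene is red on the left, Ptpn6 and Ptpn23 are red on the right, and none passed the adjusted threshold in either.

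The enzymes around these phosphatases were read by counts of calls for the averaged injury effect, beside the 21.1% of all genes called. Of 19 tested MAP kinases and MAP kinase kinases 3 rose and 4 fell. Mapk6, an atypical kinase, rose by 0.62 ± 0.057 (SE, log2 fold change) and Mapk14, which codes for p38 alpha, by 0.32 ± 0.0448, while Map2k6, which activates p38, had -0.68 ± 0.154. Mapk10, the neuronal JNK, had -0.19 ± 0.0483. Of 10 other negative regulators of ERK signalling, not all of them feedback genes, none rose and 5 fell (Spry3, Spry4, Spred2, Rasa1 and Nf1). Among them Spry4 had -0.55 ± 0.0995 and Spred2 -0.28 ± 0.0598. The ERK feedback genes of the phosphatase group itself did not move as one, since Dusp5 fell, Dusp7 rose and Dusp4 and Dusp6 did not pass.

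Of 21 tested phosphatases of related families that the name rule leaves out, 3 rose and 2 fell. Ptp4a1, which codes for PRL-1, had 0.55 ± 0.0627 (log2 fold change and SE), and the cofilin phosphatases Ssh1 and Ssh2 had 0.31 ± 0.0551 and 0.15 ± 0.0473. Epm2a, which codes for the glycogen phosphatase laforin, had -0.20 ± 0.0565.

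Of 33 tested ligands and partners of the receptor phosphatases, 5 rose (Gpc1, Sdc3, Sdc4, Ppfia2 and Angpt2) and 7 fell (Cntn1, Cntn6, Il1rapl1, Slitrk1, Slitrk3, Ppfia4 and Angpt1). None of the listed chondroitin sulphate proteoglycan genes (Acan, Bcan, Ncan, Vcan and Cspg4) was called on average. Cspg4 was called higher in EE + SNA against SH Sham. Slitrk3 and Il1rapl1, adhesion partners of type R2A receptors, had log2 fold changes of -0.81 ± 0.0703 and -0.58 ± 0.165 (SE). Cntn6, a partner of the R5 receptors, had -1.35 ± 0.126. Cntn6 and Il1rapl1 were low, at 1.42 to 6.82 and 1.87 to 5.78 CPM over all samples. The 2 angiopoietins, ligands of the receptor that Ptprb dephosphorylates, moved apart, Angpt1 with -0.86 ± 0.105 and Angpt2 with 0.38 ± 0.079. Syndecan 3 and syndecan 4, heparan sulphate ligands of PTPσ, had 0.20 ± 0.0434 and 0.22 ± 0.0646.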

How the data were processed

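Per the labels and methods, the authors aligned paired reads to mm10 with TopHat2 2.0.12 and Bowtie2 2.2.3 and counted reads on gene names by HTSeq. The deposited count table holds raw, unnormalized counts for 44345 gene names beside 5 HTSeq summary lines, which were left out. Reads in no gene made up 46.7% to 47.6% of the alignments. The deposited FPKM table holds FPKM computed by the authors, normalized to gene length and to library size, and served for levels between genes and for an alternative.

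In R 4.3.3, counts were filtered with filterByExpr (minimum 10, total 15), scaled by TMM (factors 0.978 to 1.02) and tested in edgeR 4.0.16 (glmQLFit, quasi-likelihood F test, two-sided). Each pair of groups was fitted on its 6 samples, and the averaged injury effect and the interaction on all 12. P-values were Benjamini-Hochberg adjusted over the 16238 genes tested, of 26122 with a count, and calls are at 0.05. Named with values are all members called after injury, the 6 with the smallest p in each housing comparison and a list chosen for known roles. The members and lists were chosen with earlier results of these data known. The scripts were tested on simulated data. Alternatives used DESeq2 1.42.0 and limma 3.58.1 on log2(FPKM + 1) and log2(FPKM + 0.1), other filters and scalings, and leaving out samples. Gene positions and overlaps came from GENCODE on GRCm38, and promoters from RefSeq.

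The samples are separate pools of mice. Samples of equal number correlated in their deviations at 0.111 to 0.331 in EE Sham against SH Sham, so these numbers were taken to pair them there. Samples of unequal number correlated at -0.332 to 0.194, so the ranges overlap. The block left the count of called members at 0 (1 at the unadjusted P-value). The tests printed are without the block. Columns that hold no sample of this series numbered 0. The values of 1 gene of the related phosphatases are not reported here.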

Additional observations from a re-analysis of the deposited data

How the results depend on the processing

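The averaged injury effect called 19 members and 14 to 22 under every alternative, 14 to 20 with 1 sample left out. SH SNA against SH Sham called 12, and 5 to 11 with 1 sample left out (6 without SH SNA replicate 1, 5 without SH Sham replicate 2, 7 without SH Sham replicate 3). EE + SNA against EE Sham called 3, but 6 without the filter on low counts, 5 with all 12 samples in 1 fit, 5 with the replicate block and 1 to 2 with 1 sample left out (2 when EE Sham replicate 1 was left out, otherwise 1), so that Dusp1 alone was called every time. EE + SNA against SH Sham called 13, but 5 in DESeq2, 3 with the replicate block, 6 and 5 in limma on log2(FPKM + 1) and log2(FPKM + 0.1), and 3 to 8 with 1 sample left out (of EE + SNA, leaving out replicates 1, 2 and 3 gave 3, 8 and 6, and of SH Sham 5, 3 and 4). The cause of these lower counts was not tested. EE Sham against SH Sham, EE + SNA against SH SNA and the interaction called 0 under every alternative. For single named genes, 1118 alternative values kept their side of the threshold, 224 lost and 16 gained it, and none changed direction. The settings reuse the samples from which many of these genes were chosen, so this tally is no independent evidence. Replicate numbers were not taken to pair the samples in the other comparisons, where equal-number correlations were not all above 0.1 (-0.235 to 0.236). In EE + SNA against SH SNA they were 0.0573 to 0.126, though, and all lay above those of unequal numbers (-0.123 to 0.0403). With the block that comparison also called 0 members. The block gave 12 members in SH SNA against SH Sham and 21 for the averaged effect, 18 of them shared with the 19. Dusp5 lost its averaged call without SH SNA replicate 1 or without EE Sham replicate 1 (adjusted p at most 0.055, edgeR quasi-likelihood test). Without the filter Dusp9, at most 0.929 CPM, was called higher on average. Depth limits Ptpn7, Ptpn18, Ptpn22 and Dusp27 most, and with 3 samples a group an exact permutation test cannot go below 0.1.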
